A study of Mus musculus with 4 samples.

Results

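The genes described here are 10 genes that build and turn over the actin cytoskeleton of lymphocytes. They were chosen by symbol (Actb, Actg1, Pfn1, Cfl1, Tmsb4x, Tmsb10, Coro1a, Arhgdib, Arpc2 and Lcp1) as rows of a deposited count table that holds 27179 genes, and all 10 were present in the table. The table comes from RNA-Seq of group 2 innate lymphoid cells (ILC2s), tissue-resident lymphocytes that secrete type 2 cytokines, and it compares cells exposed to deoxycholic acid (DCA), a secondary bile acid made by gut bacteria, with cells exposed to vehicle. ILC2s were sorted from the large intestine of wild-type C57BL/6 mice, expanded for 5 days with the alarmin IL-33 and with IL-25, IL-7 and IL-2 (10 ng/mL of each), and then given vehicle (2 libraries) or 100 µM DCA (2 libraries). The exposure lasted 16 hours by the design text and 24 hours by the study's methods. Mice used in the study were 6 to 14 weeks old by the paper's study design section. Its section on mice gives C57BL/6J mice a narrower range that also starts at 6 weeks. All libraries therefore come from cytokine-activated cells in culture, and no library represents ILC2s as they leave the gut. Nothing states that the 2 libraries of a treatment came from separate mice or cultures, so p-values measure only the spread between these libraries, which may be technical.

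Actin monomers assemble into filaments that push the cell edge forward, hold the shape of the cell and organize the contacts lymphocytes form with other cells. Profilin and the β-thymosins bind the monomer, the Arp2/3 complex and formins start new filaments, cofilin and coronin take old filaments apart, plastin bundles them, and small GTPases with their inhibitors direct where assembly takes place. Lymphocytes carry a haematopoietic set of these proteins, which includes coronin 1A, L-plastin and the GTPase inhibitor encoded by Arhgdib.

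Library totals ranged from 26564059 to 244165712 counts, and DCA replicate 2 was by far the deepest. Between 12302 and 15592 genes had at least 1 count. All 9 ILC2 markers examined had a mean of at least 1 CPM (counts scaled to a common library size), and their summed level ranged from 6695 to 6935 CPM. Thy1 reached that mean through DCA 1 alone. Within the steady sum, Il1rl1 (-0.60) and Klrg1 (-0.74) were lower with DCA and Il2ra (0.47) and Il7r (0.53) higher, as fitted log2 fold changes. For these markers the treatments did not overlap, as in 33.3% of all 11184 genes tested. The adjusted p was 0.999 in edgeR's test for each. The treatments overlapped for Gata3 (-0.07), Id2 (0.06), Il17rb (-0.13), Rora (0.38) and Thy1. Id2 was the largest part of the sum, at 2814 to 3105 CPM. Among T cell markers, Cd4 and Cd8a were at 0 in every library. The summed level of the list was 20.6 and 33.6 CPM with vehicle against 27.4 and 15.9 CPM with DCA. Most of it was Cd3g, with 11.9 and 25.6 CPM with vehicle against 21.3 and 10.5 CPM with DCA. Trac followed with 6.13 and 7.99 CPM with vehicle against 5.76 and 4.65 CPM with DCA. B cell markers summed to 55.2 and 47.3 CPM with vehicle and to 37.8 and 44.5 CPM with DCA, nearly all of it Cd79b. The sums for macrophage and monocyte markers were 24.7 and 23.998 CPM with vehicle, against 7.31 and 10.2 CPM with DCA, of which Cd68 alone reached a mean of 1 CPM. The part of such cells in the values below was not tested.

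Together the 10 genes made up 1.49% and 1.74% of all counts in the vehicle libraries and 1.62% and 1.67% in the DCA libraries. Tmsb4x added almost nothing to these sums, with 0 and 3 counts with vehicle and 0 and 12 counts with DCA. The counts of Actg1 are uncertain, as described further on. The share was 1.61% ± 0.175 (SD, n = 2) with vehicle and 1.64% ± 0.0311 (SD, n = 2) with DCA. The 2 DCA libraries lay between the 2 vehicle libraries, and the difference was within the spread between replicates (exact permutation test, two-sided, p = 1; the smallest p that 2 against 2 libraries allow is 0.333). These are bulk samples, in which fewer cells of a type and less RNA per cell cannot be told apart.

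No member passed the test for a change with DCA. Of the 10 genes, 9 had a mean of at least 1 CPM and were tested with edgeR's quasi-likelihood test, with Benjamini-Hochberg adjustment over 11184 genes. At an adjusted p under 0.05, 0 of the 9 members were called with edgeR, as were 0 of all genes tested (0%). At an unadjusted p under 0.05 the numbers were 0 of 9 members and 478 of all genes (4.27%). DESeq2 called 128 of all genes and limma called 0, and neither called a member. For all 9 tested members the vehicle and DCA libraries overlapped. The libraries of the 2 treatments stood apart in 33.3% of all genes tested. A random order of 2 against 2 libraries would give a share of 0.333, so that background by itself shows no effect of DCA. Fitted log2 fold changes (DCA against vehicle) were above 0 for 5 members and below 0 for 4. Their median was 0.0061, beside 0.0080 over all genes tested, and the median size regardless of sign was 0.084, beside 0.38 over all genes. This background holds genes expressed far below the members, and its median size was 0.32 under the stricter 5 CPM filter. Whether the members changed less than genes of similar level was not tested. Every adjusted p given by edgeR for a member was 0.999.

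**Figure D1:**
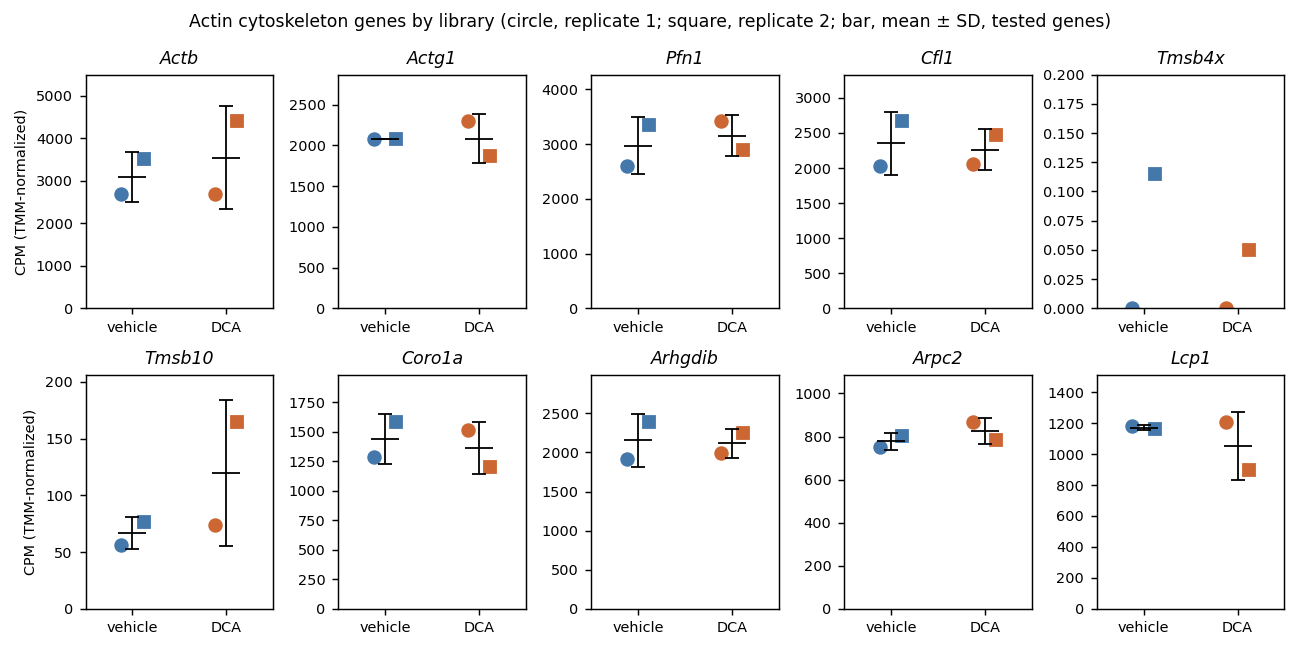
TMM-normalized CPM (y axis, from 0, a scale for each gene) of the 10 actin cytoskeleton genes in the vehicle and DCA libraries (x axis), with circles for replicate 1, squares for replicate 2 and bars for the mean ± SD of the 9 tested genes. The 2 treatments overlap in every panel, Tmsb10 in DCA 2 (165 CPM) stands above its other libraries, and Tmsb4x stays under 0.2 CPM throughout.

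The plot of CPM by library shows each gene in turn. Cytoplasmic actin is encoded by Actb (β-actin, Entrez 11461, chr5:142903115-142907976 on GRCm38.p6) and Actg1 (γ-actin, Entrez 11465, chr11:120345687-120348495), whose proteins are almost identical. Their coding sequences have diverged far more, mostly at positions that leave the amino acid unchanged, and this is what lets reads be told apart. The coding sequences have 1128 bases each, differ at 128 of them (88.7% identity) and share no identical stretch longer than 62 bases, which is shorter than the 150-base reads. The first 90 coding bases in the GENCODE M21 annotation of GRCm38 (Actb, chr5:142903798-142905686, minus strand; Actg1, chr11:120346390-120348091, minus strand; coordinates span the whole coding sequence) are shown with the 16 differing bases in capitals, because the comparison of both isoforms rests on such differences.
Actb: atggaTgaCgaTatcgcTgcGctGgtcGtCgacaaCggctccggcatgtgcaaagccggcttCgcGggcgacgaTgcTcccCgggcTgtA
Actg1: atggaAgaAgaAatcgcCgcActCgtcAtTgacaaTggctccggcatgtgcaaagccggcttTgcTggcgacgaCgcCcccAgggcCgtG
The capitals fall throughout the stretch, apart from a conserved run in its middle.

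Actb stood at 2683 and 3509 CPM in vehicle replicates 1 and 2 and at 2690 and 4395 CPM in DCA replicates 1 and 2. The first replicate of each treatment was low and the second high, so that the treatments overlapped. The means were 3096 ± 584 with vehicle and 3542 ± 1206 with DCA (SD, n = 2 each). The fitted log2 fold change was 0.19 (edgeR, unadjusted p = 0.518), and limma's 95% interval of the difference on the log2(CPM + 1) scale ran from -0.52 to 0.85.

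Actg1 was the steadiest gene between vehicle libraries, at 2077 CPM in both, and stood at 2297 and 1875 CPM in the DCA libraries. One DCA library lay above both vehicle libraries and the other below them. The means were 2077 ± 0.156 and 2086 ± 298 CPM (SD, n = 2 each), with a log2 fold change of 0.0061 (edgeR, unadjusted p = 0.976) and an interval from -0.52 to 0.52. This gene shares sequence with 6 processed pseudogenes, of which Gm12715 is 99.6% identical over 1128 bases, and 43.5% of all 150-base windows of its transcript occur unchanged in at least 1 of them. How the counting treated such reads is not given in the sources used here. The level of Actg1 is therefore uncertain, to an extent that this share of windows does not measure. No copy of Actb passed the same search, which asked for 95% identity over 150 bases. Cfl1 (Gm6180 and Snx32), Arpc2 (AC154544.1) and Lcp1 (Gm15628) also had matches that passed it. None of their 150-base windows occurred unchanged in these, but windows were compared in the transcript's own direction only.

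The ratio of Actb to Actg1 counts within a library does not depend on how libraries are scaled. It was 1.29 and 1.69 with vehicle and 1.17 and 2.34 with DCA, so Actb gave more counts than Actg1 in all 4 libraries. On the log2 scale the ratio was 0.56 ± 0.27 with vehicle and 0.73 ± 0.71 with DCA (SD, n = 2 each). The difference of 0.17 was smaller than the spread within either treatment (exact permutation test, two-sided, p = 1), and it turned to -0.028 without vehicle 1 and to -0.34 without DCA 2.

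Of the 9 members with a promoter window, Actg1 alone held a CArG box, the binding motif of serum response factor (SRF), in the 250 bases before its RefSeq start. No window was searched for Actb. SRF and its MRTF partners, which sense the pool of free actin, are known to drive many actin genes. The window (chr11:120348496-120348745, minus strand, GRCm38.p6, sequence from RefSeq) is shown with the box in capitals.
Actg1 promoter: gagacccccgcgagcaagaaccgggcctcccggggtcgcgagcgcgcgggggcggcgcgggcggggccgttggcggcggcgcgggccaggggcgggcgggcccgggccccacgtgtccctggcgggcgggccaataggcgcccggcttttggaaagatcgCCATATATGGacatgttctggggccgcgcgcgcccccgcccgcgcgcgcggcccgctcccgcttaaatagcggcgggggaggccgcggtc
This is 1 of 9 members (11.1%), with both strands searched. Among all genes with a window 439 of 27025 (1.62%) held it. In a wider list of actin cytoskeleton genes, described further on, it was found for 6 of 88 genes (6.82%), namely Acta1, Actc1, Arpc4, Myl6, Srf and Vcl. A match is a description of the sequence, and no binding was measured here.

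Pfn1 (Entrez 18643, chr11:70651844-70656799) encodes profilin 1, which brings actin monomers to growing filament ends. It had 2600 and 3344 CPM with vehicle, against 3414 and 2884 CPM with DCA. The vehicle libraries differed from each other by more than the treatments did (2972 ± 526 against 3149 ± 375 CPM, SD, n = 2 each). The log2 fold change was 0.08 (edgeR, unadjusted p = 0.704) with an interval from -0.47 to 0.65. Its locus overlaps Eno3, which had 76 and 8 counts with vehicle, against 193 and 2170 counts with DCA. Pfn1 itself had at least 87499 counts in every library.

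The β-thymosins are small peptides that hold actin monomers in reserve, and the table treats its 2 members very differently. Tmsb4x (thymosin β4, Entrez 19241, chrX:167207093-167213479), known as one of the most abundant messages of leukocytes, had 0 and 3 counts with vehicle, against 0 and 12 counts with DCA. It was at or under 3 counts in all libraries but DCA 2, whose 12 counts amount to 0.0499 CPM, and it was not tested. Tmsb10 (thymosin β10, Entrez 19240, chr6:72957347-72958748) had 2070 and 2011 counts with vehicle, against 2390 and 39673 counts with DCA. The coding sequences of both genes have 135 bases, differ at 40 (70.4% identity) and share no identical run longer than 10 bases. They are printed whole (GENCODE M21, GRCm38) to show how far the pair differs, with the differing bases in capitals. Gm9844, a near copy of Tmsb10 annotated as coding, follows with the 2 bases at which it departs from Tmsb10 in capitals.
Tmsb4x (chrX:167207501-167208036, minus strand): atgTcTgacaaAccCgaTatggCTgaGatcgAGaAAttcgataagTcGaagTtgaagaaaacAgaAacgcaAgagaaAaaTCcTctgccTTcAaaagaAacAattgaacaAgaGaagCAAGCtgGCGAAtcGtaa
Tmsb10 (chr6:72957618-72958012, minus strand): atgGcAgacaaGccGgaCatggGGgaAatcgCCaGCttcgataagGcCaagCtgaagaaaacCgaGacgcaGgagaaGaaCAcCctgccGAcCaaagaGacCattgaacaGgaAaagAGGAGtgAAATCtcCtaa
Gm9844 (chr7:24862278-24862412, plus strand): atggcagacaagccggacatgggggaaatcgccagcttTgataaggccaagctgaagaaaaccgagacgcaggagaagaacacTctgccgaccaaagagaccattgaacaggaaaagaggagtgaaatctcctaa
No annotated transcript passed as a copy of Tmsb4x and no RefSeq gene overlaps it. How the authors' counting treated the Tmsb4x locus was not tested, and the counts say only that the gene is listed near 0.

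Among all tested members Tmsb10 had the widest spread. It stood at 56.6 and 76.8 CPM with vehicle, against 74.0 and 165 CPM with DCA. DCA 1 lay inside the vehicle range and DCA 2 alone lay above it. The means were 66.7 ± 14.3 and 119.5 ± 64.4 CPM (SD, n = 2 each), the log2 fold change was 0.84 (edgeR, unadjusted p = 0.0970), and the interval ran from -0.20 to 1.67. Leaving out DCA 2 brought the log2 fold change to 0.15, and leaving out DCA 1 brought it to 1.30 with an unadjusted p of 0.0240 in edgeR's test. Of the 150-base windows of Tmsb10, 9.06% occur unchanged in Gm9844.

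Cfl1 (cofilin 1, Entrez 12631, chr19:5490455-5494031), which severs ageing filaments, was measured at 2036 and 2666 CPM with vehicle, against 2052 and 2466 CPM with DCA. Both DCA libraries lay between the vehicle libraries. The log2 fold change was -0.06 (edgeR, unadjusted p = 0.802) with an interval from -0.61 to 0.51. Coro1a (coronin 1A, Entrez 12721, chr7:126699774-126704816), a haematopoietic filament-binding protein that T cells need to survive and migrate, had 1285 and 1584 CPM with vehicle, against 1515 and 1202 CPM with DCA. Here the 2 extremes came from opposite treatments, with the highest value in vehicle 2 and the lowest in DCA 2. Its log2 fold change was -0.08 (edgeR, unadjusted p = 0.735), with an interval from -0.62 to 0.46.

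Arhgdib (Entrez 11857, chr6:136923655-136941899) encodes a haematopoietic GDP-dissociation inhibitor, which keeps small GTPases in the cytosol. Its levels were 1918 and 2395 CPM with vehicle, against 1989 and 2245 CPM with DCA, again with both DCA libraries inside the vehicle range. The log2 fold change was -0.03 (edgeR, unadjusted p = 0.900) and the interval ran from -0.55 to 0.51. Arpc2 (Entrez 76709, chr1:74236490-74268209), a structural subunit of the Arp2/3 complex, stood at 750.4 and 804.7 CPM with vehicle, against 869.2 and 784.0 CPM with DCA. It had the narrowest range of the tested members, with a highest library 1.16 times the lowest. Its log2 fold change was 0.09 (edgeR, unadjusted p = 0.667) with an interval from -0.39 to 0.57.

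Lcp1 (L-plastin, Entrez 18826, chr14:75131105-75230842), which bundles filaments in leukocytes, had 1183 and 1160 CPM with vehicle, against 1210 and 896.1 CPM with DCA. DCA 1 was the highest library and DCA 2 the lowest. The log2 fold change was -0.15 (edgeR, unadjusted p = 0.512), with an interval from -0.70 to 0.36.

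**Figure D2:**
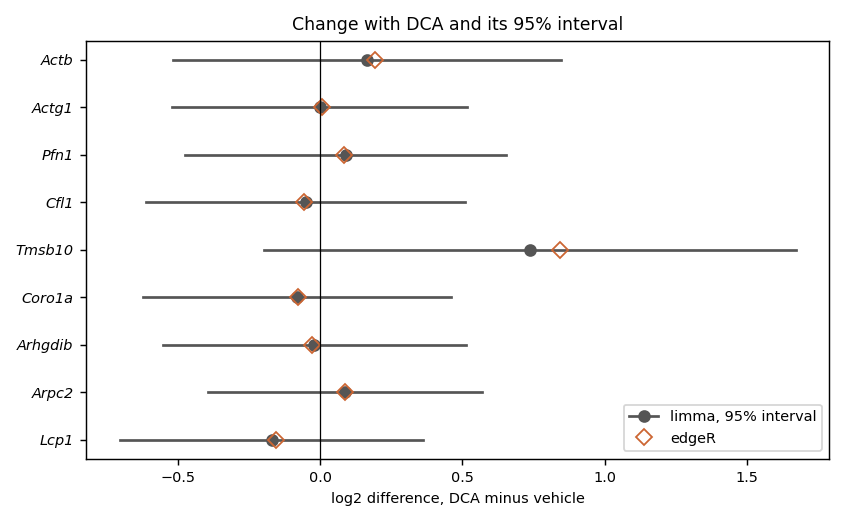
Log2 difference between DCA and vehicle (x axis) for the 9 tested genes (y axis), with filled circles and lines for limma's estimate and 95% interval on log2(CPM + 1) and open diamonds for edgeR's estimate. All 9 intervals hold 0, and that of Tmsb10, from -0.20 to 1.67, is the widest.

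As the plot of intervals shows, 0 lay inside the interval of all 9 tested members. For the 7 members other than Actb and Tmsb10, a set chosen after their values were seen, the intervals stayed between -0.70 and 0.65, that is between 0.615-fold and 1.57-fold. Changes up to those bounds were not excluded for 1 or more of these genes, and for Tmsb10 the interval reached 3.18-fold. For all 9 members the gap within at least 1 treatment was wider than the change between treatments, which follows from the overlap of their libraries. The median gap between the 2 vehicle libraries was 0.32 on the log2 scale (0.56 over all genes tested) and that between the 2 DCA libraries was 0.29 (0.41 over all genes). Those backgrounds again include genes far less expressed than the members.

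Levels of different genes were compared as CPM per kb of exon. Pfn1 (mean over libraries 1272), Arhgdib (1252) and Actb (1239) were highest, and their library ranges overlapped. Cfl1 (810.5) and Actg1 (783.0) followed, overlapping each other but not Actb. The place of Actg1 is uncertain, since reads shared with its pseudogenes may have been lost or gained, so its order against Actb is not settled. Coro1a (501.8) and Arpc2 (394.5) came next, each apart from its neighbours. Lcp1 (117) and Tmsb10 (73.0) overlapped through DCA 2, the lowest library for Lcp1 and the highest for Tmsb10, and Tmsb4x was last at 0.0300. With the longest annotated transcript as the length, the median over members was 889 in place of 642 CPM per kb, Arhgdib came first, followed by Actb and Pfn1, and Actg1 passed Cfl1.

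**Figure D3:**
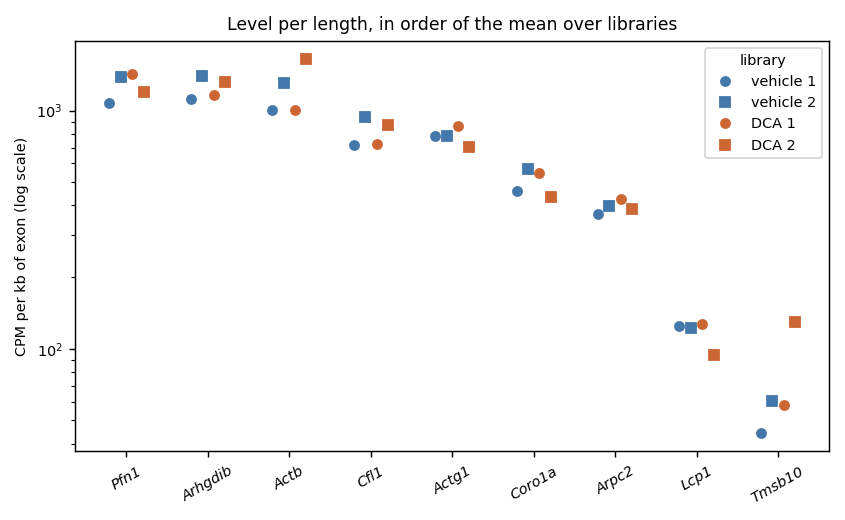
CPM per kb of exon (y axis, log scale) for 9 members (x axis, in order of the mean over libraries), with 1 point for each library, coloured by treatment. Pfn1, Arhgdib and Actb lie together at the top, Lcp1 and Tmsb10 lie lowest and overlap, and Tmsb4x (0.0300) is left out.

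The members differed in how closely they moved with each other from library to library. Cfl1 and Arhgdib kept the steadiest proportion of 36 pairs, with a log2 ratio of CPM of 0.0856 and 0.155 in the vehicle libraries and 0.0456 and 0.135 in the DCA libraries. Both are highest in vehicle 2 and next highest in DCA 2. The ratio of Actg1 to Arpc2 varied by 0.21 on the log2 scale and that of Pfn1 to Coro1a by 0.25. At the other end, the log2 ratio of Tmsb10 to Lcp1 went from -4.39 in vehicle 1 to -2.44 in DCA 2. The median centred log2 profile of the 9 tested members was -0.15 and 0.11 in vehicle 1 and 2 and 0.12 and -0.031 in DCA 1 and 2, and vehicle 1 held the lowest value of 6 members. Pfn1 followed this profile most closely (root mean square distance 0.0524 on the log2 scale), then Arpc2 (0.0594), and Tmsb10 least (0.572).

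Over the same 4 libraries, the 5 other genes closest to that profile, of 2293 with a mean of at least 93.1 CPM, were Get4 (distance 0.0137), Eno1 (0.0210), Rac2 (0.0214), Rsl24d1 (0.0247) and Phb (0.0252). Rac2, the haematopoietic Rac GTPase that switches on Arp2/3 activators, stood at 1172 and 1390 CPM with vehicle, against 1423 and 1242 CPM with DCA. Eno1, a glycolytic enzyme, stood at 2376 and 2819 CPM with vehicle, against 2768 and 2541 CPM with DCA. This likeness rests on 4 libraries and is given as a description.

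A wider list of 105 genes of the same machinery was set up by role, and 96 of them were tested. With edgeR 0 were called at an adjusted p under 0.05, and 4 had an unadjusted p under 0.05. Of these 4, 2 were higher with DCA (2.08% of 96, beside 2.54% of all genes tested) and 2 were lower (2.08%, beside 1.73%), so both shares were near the background. DESeq2 and limma also called 0 of the list. The libraries of the 2 treatments stood apart for 19 genes in the higher direction (19.8%, beside 18.6% of all genes) and for 16 in the lower direction (16.7%, beside 14.7%). The list had 52 fitted values above 0 and 44 below, with a median of 0.043 (0.0080 over all genes).

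**Figure D4:**
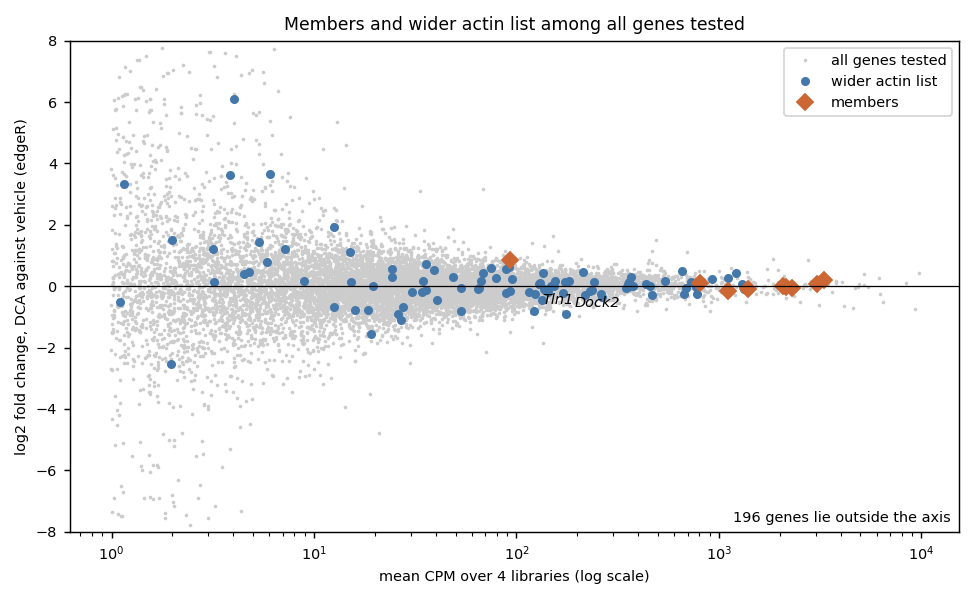
Log2 fold change with DCA fitted by edgeR (y axis) against mean CPM over the 4 libraries (x axis, log scale) for all genes tested (grey), the wider actin list (blue) and the 9 tested members (orange), with 196 genes outside the axis. The members sit at the right near 0, apart from Tmsb10 (mean 93.1 CPM, log2 fold change 0.84). The 2 labelled genes are those of the wider list with an unadjusted p under 0.05 whose mean reached 10 CPM.

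The plot of fold change against level places Tln1 and Dock2 among well-expressed genes and Myo1f among low ones. Tln1 (talin 1, which links integrins to actin) had 162.7 and 147.0 CPM with vehicle, against 89.6 and 87.4 CPM with DCA, and its fitted log2 change was -0.81 (edgeR, unadjusted p = 0.0149, adjusted p = 0.999). Dock2, the exchange factor that loads Rac in lymphocytes, had 289.2 and 165.6 CPM with vehicle, against 130.5 and 113.3 CPM with DCA (log2 fold change -0.90, unadjusted p = 0.0296 in edgeR's test). Without vehicle 1, its highest library, the value was -0.47 (edgeR, unadjusted p = 0.156). For both genes all DCA libraries lay below all vehicle libraries. Myo1f, a leukocyte class I myosin, had 8 and 0 counts with vehicle, against 460 and 375 counts with DCA, or 0.219 and 0 against 14.2 and 1.56 CPM. Its fitted log2 fold change of 6.11 (edgeR, unadjusted p = 0.0391) rests on those few vehicle counts. Across the alternatives that kept all libraries, the smallest adjusted p of the 4 genes was 0.0823, for Myo1f with DESeq2.

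By role, none of the other tested genes reached an unadjusted p of 0.05 with edgeR as used here. In the alternatives that kept all libraries, of the genes named in what follows, Capg did with DESeq2 and with a replicate block, Pfn2 with limma and with no filter, and Mrtfa with no filter, and none was called. Among 5 further monomer-binding genes, Cap1 (which recycles monomers) had a fitted log2 fold change of -0.20, and Pfn2 stood at 10.2 and 0.153 CPM with vehicle, against 23.2 and 16.8 CPM with DCA (1.94, edgeR, unadjusted p = 0.247). Both DCA libraries of Pfn2 lay above the vehicle libraries, but the vehicle libraries differed far more from each other. In the severing and turnover group of 13 tested genes, 6 values were above 0 and 7 below. Wdr1, a cofactor of cofilin, had 0.028, and the second cofilin gene Cfl2 had 27.8 and 39.9 CPM with vehicle, against 17.5 and 18.8 CPM with DCA (-0.90, edgeR, unadjusted p = 0.0898).

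For the 8 other subunits and relatives of the Arp2/3 complex, 3 values were above 0 and 5 below, with a median of -0.15. Actr3 had a log2 fold change of -0.053, and Arpc4 had 242 and 234 CPM with vehicle, against 213 and 180 CPM with DCA (-0.28, edgeR, unadjusted p = 0.257). Of 13 tested activators of the complex, 6 were above 0 and 7 below. Brk1, the smallest subunit of the WAVE complex, had -0.14. Wasf2, the WAVE protein of leukocytes, stood at 9.71 and 9.36 CPM with vehicle, against 17.9 and 23.6 CPM with DCA (1.12, edgeR, unadjusted p = 0.0977).

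Formins, which elongate unbranched filaments, had fitted values above 0 for all 8 genes tested, beside 5672 of 11184 over all genes. Their median was 0.47, but the median gap between the 2 vehicle libraries in this group was 1.92. In edgeR's test none of the 8 reached an unadjusted p of 0.05. Fmnl1, the haematopoietic formin, had 0.27 and Diaph1 had 0.56 (edgeR, unadjusted p = 0.271). Cdc42, a small GTPase that switches on Arp2/3 activators, had -0.11. Among 8 capping genes 7 values were above 0, with a median of 0.15. The median gap in this group was 0.32 between the vehicle libraries and 0.39 between the DCA libraries. Capg, a gelsolin relative that caps filament ends, stood at 1006 and 1057 CPM with vehicle, against 1515 and 1289 CPM with DCA (0.44, edgeR, unadjusted p = 0.0629), with both DCA libraries above both vehicle libraries. Add3, an adducin, had -0.77 (edgeR, unadjusted p = 0.231).

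Of 10 tested crosslinkers and membrane linkers, 4 values were above 0 and 6 below, and Msn (moesin, which ties filaments to the membrane) had -0.26. Of 11 tested tropomyosins and myosins, 6 were above 0 and 5 below. Myl6, a non-muscle myosin light chain, had 0.27 (edgeR, unadjusted p = 0.212) and Myo9b, a class IX myosin, stood at 51.5 and 21.7 CPM with vehicle, against 18.7 and 15.6 CPM with DCA (-1.09, edgeR, unadjusted p = 0.0914, and -0.37 without vehicle 1). The transcription factor Srf had -0.0074. Its coactivator gene Mrtfa stood at 46.4 and 10.9 CPM with vehicle, against 12.6 and 6.90 CPM with DCA (-1.56, edgeR, unadjusted p = 0.0997), where vehicle 1 alone was high and without it the value was -0.19. Of the 4 other actin isoforms only Acta2, smooth muscle actin, was tested. It had 0 and 68 counts with vehicle, against 25 and 245 counts with DCA, or 0 and 2.60 against 0.774 and 1.02 CPM. Its libraries overlapped (-0.53, edgeR, unadjusted p = 0.853).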

How the data were processed

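RNA-Seq was analysed from 1 table with 2 vehicle and 2 DCA libraries of cultured large intestinal ILC2s, assigned to treatments by their labels. Full-length cDNA libraries were sequenced as paired 150-base reads, trimmed with cutadapt 1.9 and aligned to mm10 with HISAT2 2.2.1, per the submitters' processing notes. The deposited values are whole-number counts per gene, although the table is named for FPKM. The counting tool, its annotation and its strand setting are not given in the sources used here, so overlapping genes and near-identical copies are uncertain. In 1275 rows the symbol was missing, and these rows, 0.137% to 0.173% of a library, were kept under their identifiers.

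Counts were TMM-normalized and tested with edgeR 4.0.16 (quasi-likelihood, two-sided, Benjamini-Hochberg) in R 4.3.3 after removal of genes whose mean was under 1 CPM. Intervals came from limma 3.58.1 on log2(CPM + 1), and DESeq2 1.42.0 was an alternative. The statistical code was checked on simulated data. Shares and ratios were compared by exact permutation tests. Genomic positions came from RefSeq on GRCm38.p6 (25275 identifiers matched), lengths and copies from GENCODE M21 with blastn 2.17.0. At 3 counts, the floor was 0.0125 to 0.115 CPM, for counting error only. The members and lists were chosen with earlier results of these data known. Beyond the members, genes were named if they had an unadjusted p under 0.05 in the wider list, the highest mean CPM or (at a mean of at least 10 CPM) the largest change of their role, or 1 of the 5 closest profiles. Among these, 1 gene of the wider list and 1 of its groups are not reported here. Alternatives were other scaling, other tools, filters of none and 5 CPM, a replicate block, thinning of DCA 2 to 32100082 counts, and leaving out each library.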

Additional observations from a re-analysis of the deposited data

How the results depend on the processing

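In all 12 alternatives 0 members and 0 genes of the wider list were called. Over all genes, edgeR called 0, DESeq2 called 128 and edgeR with no filter called 36, and leaving out 1 library gave 0 to 20 calls, with 20 without vehicle 1. At an unadjusted p under 0.05 the wider list held 13 higher and 2 lower genes of 97 without vehicle 1 (1497 of 11118 over all genes), 4 higher and 7 lower of 96 without vehicle 2 (1231 of 11192), 0 of 95 without DCA 1 (106 of 11090), and 2 higher and 0 lower of 96 without DCA 2 (259 of 11082). The lone library left in a treatment was then assumed to vary like the others. Among members, Tmsb10 alone reached an unadjusted p under 0.05, in edgeR with no filter (adjusted p = 0.651), without DCA 1 and with the replicate block. Whether libraries of the same number shared mice or a culture is not stated. Over all genes tested, the deviations of vehicle 1 and DCA 1 from their treatment means had a correlation of 0.0197. With 2 libraries per treatment this value cannot decide whether they were paired. The replicate block called 0 genes, with 450 at an unadjusted p under 0.05 in edgeR's test.

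Among values of single genes under the 8 alternatives that kept all libraries, 245 of 254 kept their sign. None of these genes was called in any of these fits, so the count speaks of the sign only. The log2 fold change of Actg1, near 0, turned to -0.020 with median-of-ratios size factors and with DESeq2 (-0.020), -0.0023 with total counts, -0.0013 with limma, -0.0014 with the replicate block and -0.0010 after thinning. Srf turned to 0.023 with limma and 0.026 with the block, and Acta2 to 2.30 with the block. The cause was not tested.

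Leaving out 1 library moved the log2 fold change between -0.20 and 0.50 for Actb, -0.15 and 0.15 for Actg1, -0.11 and 0.28 for Pfn1, -0.27 and 0.15 for Cfl1, -0.26 and 0.082 for Coro1a, -0.20 and 0.14 for Arhgdib, and -0.39 and 0.048 for Lcp1. In the wider list it moved Actr3 between -0.25 and 0.15, Msn between -0.56 and 0.11, Srf between -0.30 and 0.33, Cap1 between -0.43 and 0.045, Cdc42 between -0.27 and 0.051 and Wdr1 between -0.27 and 0.27. The members' median went from -0.11 without vehicle 1 to 0.14 without vehicle 2. The difference in summed share went from -0.092 without vehicle 1 to 0.16 without vehicle 2, in percentage points, and that in the log2 ratio of Actb to Actg1 from -0.34 without DCA 2 to 0.67 without DCA 1. The median level per kb moved from 642 to 889 with the longest transcript. The ranges of Dock2 (-1.25 to -0.47), Myo9b (-1.58 to -0.37), Mrtfa (-2.26 to -0.19), Pfn2 (0.97 to 6.99) and Fmnl1 (0.010 to 0.56) kept their sign but were wide, with the end nearest 0 reached without vehicle 1 for Dock2, Myo9b and Mrtfa and without vehicle 2 for Pfn2 and Fmnl1. Tmsb4x had too few counts to be tested.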
